A study of Mus musculus with 70 samples.

Results

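Regulatory T cells (Tregs) of the skin were compared by whether they carried ST2, the receptor for the alarmin IL-33, on their surface. The comparison uses 10 RNA-seq libraries, 5 of ST2+ CD44hi and 5 of ST2- CD44hi Tregs from back skin, out of 70 libraries in the series. They were chosen by their labelled tissue and sorted population, and all 10 had more than 1000000 counted reads. The series also holds the same pair of populations from blood, spleen, lungs, visceral adipose tissue (VAT) and colon of the same 5 mice, and CD44lo CD62L+ Tregs from spleen and lungs.

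All mice were male and of a strain labelled B6.129(Cg) that carries Foxp3tm4(YFP/icre)Ayr, an allele in which the Foxp3 locus, active in Tregs, drives a fusion of YFP and Cre recombinase. Both skin groups carried this allele, and no group received a treatment. Mice 1 to 5 were 16.6, 17.1, 17.4, 18.1 and 18.6 weeks old, and each mouse gave 1 library to each skin group. Tregs were gated as live CD45.2+ CD4+ YFP+ cells negative for CD8 and CD11b, among other markers, and 220 cells were sorted for every skin library.

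ST2 is encoded by Il1rl1 and binds IL-33, which damaged epithelial and stromal cells release. The receptor signals through MyD88 to NF-kB and MAP kinases, and in Tregs it is best known from barrier tissues and fat, where ST2+ cells take part in repair. Type 2 helper T cells depend on the transcription factor GATA3 and can carry ST2 as well, while T-bet (Tbx21) and the chemokine receptor CXCR3 mark Tregs that face type 1 inflammation.

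The 5 ST2+ libraries held 1304560 to 2500529 counted reads and the 5 ST2- libraries 1545763 to 2426957. The 2 groups did not differ detectably in total counts (exact permutation test, two-sided, p = 0.968), in genes detected (15226 ± 1365 and 15275 ± 976, SD, exact p = 0.952) or in the mitochondrial share (0.511% ± 0.0785 and 0.518% ± 0.0577, exact p = 0.849). The smallest p these group sizes allow is 0.00794. The ST2+ library of mouse 4 stood apart in its content, with reads of mast cell genes that were at 0 in the other 9. All levels are CPM, counts per 1000000 reads on TMM-scaled library sizes, and values run from mouse 1 to mouse 5.

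Il1rl1 (ENSMUSG00000026069, chr1:40429570-40465415, GRCm38), the gene of the sort marker, checked the labels. Its level was 1366, 1528, 1374, 1403 and 1614 CPM in the ST2+ libraries and 23.9, 124, 112, 137 and 195 CPM in the ST2- libraries. The groups were far apart in all 5 mice, yet no ST2- library was free of Il1rl1. In bulk libraries fewer cells of a kind and less RNA per cell cannot be told apart, here and for every gene below. The difference was 12.4-fold (log2 fold change 3.63, SE 0.41, adjusted p = 1.61e-08, edgeR). Foxp3, the lineage factor of Tregs, stood at 355, 379, 414, 389 and 368 CPM in ST2+ and at 321, 337, 367, 381 and 334 CPM in ST2- cells. The level was higher in ST2+ cells in all 5 mice. The ranges overlapped, and the difference did not pass the test (log2 fold change 0.13, SE 0.12, adjusted p = 0.916).

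GATA factors bind the core letters AGATAA and TGATAA, so these and their reverse complements TTATCT and TTATCA were searched on both strands in the 250 bases before RefSeq transcription starts (GRCm38.p6). The 3 windows are shown because they belong to Il1rl1, which has 2 annotated starts, and to Gimap4, the gene of smallest p in the skin comparison. They are written 5′ to 3′ on the strand of the gene, which is plus for both genes, with the matched letters in capitals.
Il1rl1, start 1, chr1:40429320-40429569: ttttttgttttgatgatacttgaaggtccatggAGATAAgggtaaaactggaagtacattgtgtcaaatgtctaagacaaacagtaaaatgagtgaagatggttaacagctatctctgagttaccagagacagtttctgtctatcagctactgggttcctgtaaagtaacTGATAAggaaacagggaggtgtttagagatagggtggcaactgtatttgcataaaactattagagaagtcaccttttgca
Il1rl1, start 2, chr1:40439379-40439628: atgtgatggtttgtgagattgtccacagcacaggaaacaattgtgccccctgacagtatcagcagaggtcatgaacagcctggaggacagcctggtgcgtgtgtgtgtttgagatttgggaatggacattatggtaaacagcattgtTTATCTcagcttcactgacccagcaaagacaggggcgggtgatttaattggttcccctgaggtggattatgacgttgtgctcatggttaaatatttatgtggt
Gimap4, chr6:48684328-48684577: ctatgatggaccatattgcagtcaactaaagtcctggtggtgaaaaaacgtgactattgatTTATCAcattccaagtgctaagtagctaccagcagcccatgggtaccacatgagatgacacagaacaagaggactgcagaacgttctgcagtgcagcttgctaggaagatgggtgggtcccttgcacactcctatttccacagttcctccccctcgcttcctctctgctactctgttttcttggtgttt
The first Il1rl1 window held 2 matches, the second 1 and the Gimap4 window 1. Of the 28 genes called in skin, 23 had a window in the table and 5 of these (21.7%) held a match, beside 18.8% of all 27025 genes in the table. A match of letters is a description of the sequence and does not show binding.

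The comparison asked which genes besides Il1rl1 differ between ST2+ and ST2- Tregs that share a tissue. Of 13173 protein-coding genes tested, 28 (0.213%) were differentially expressed genes (DEGs), with a fold change of at least 1.5 and an adjusted p of at most 0.05. Of these, 11 (0.0835% of genes tested) were higher and 17 (0.129%) lower in ST2+ cells. ST2+ cells held more RNA of Gata3, of the TNF receptor family member Tnfrsf25 and of Swap70, and less of the chemokine receptor Cxcr3, of Cd40lg and of the GTPase Gimap4. The direction was the same in all 5 mice for 21 of the 28. The ranges of the groups did not overlap for 15 of the 28, against 1.42% of all genes tested. The 28 were picked by p on these same libraries, so neither count is independent support for the calls. Across all genes the median log2 fold change was -0.0074.

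**Figure D1:**
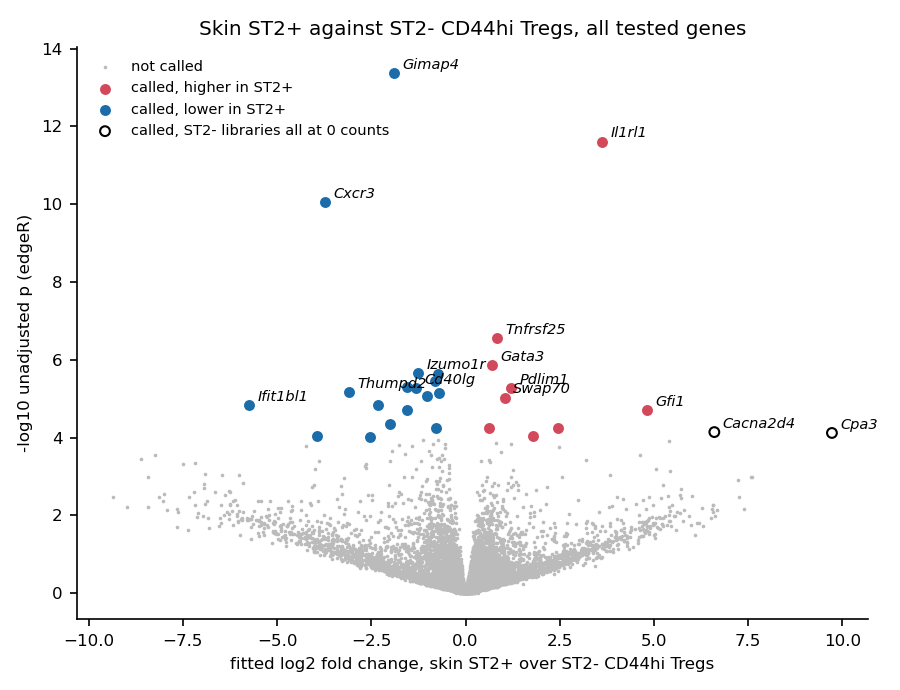
Every tested gene in skin, with the fitted log2 fold change of ST2+ over ST2- on the x axis and -log10 of the unadjusted p on the y axis. The 28 called genes are coloured by direction, and Cpa3 and Cacna2d4 are drawn open because all 5 ST2- libraries were at 0, so their fitted folds depend on the prior count. Gimap4, Il1rl1 and Cxcr3 stand above all others.

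The count depended on the tool and on single mice. With limma, voom and quality weights, 55 genes were called, 37 higher and 18 lower, and 8 of the 28 were among them: Il1rl1, Gata3, Tnfrsf25, Swap70, Cpm, Cxcr3, Cd40lg and Tnfaip8l2. DESeq2 called 102 genes, all 28 included, and edgeR with robust dispersion 29, also with all 28. The 5 genes Il1rl1, Gimap4, Cxcr3, Tnfrsf25 and Gata3 were called again when any 1 mouse was left out, and the other 23 lost the call in at least 1 case. Without mouse 4 the count fell to 12, of which 9 were among the 28, and without the ST2+ library of mouse 4 alone it was 26, with 21 of the 28 kept.

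Among the genes higher in ST2+ cells, Gata3 was at 492, 563, 574, 577 and 543 CPM against 281, 361, 341, 368 and 338 CPM in ST2- cells. Every ST2+ library lay above every ST2- library, and the difference was 1.63-fold (log2 fold change 0.70, SE 0.13, adjusted p = 0.00363). Gata3 overlaps 9230102O04Rik on its own strand and 4930412O13Rik on the other, so some reads may belong to these. Tnfrsf25 encodes DR3, the receptor for TL1A, a cytokine that expands Tregs. It stood at 227, 261, 229, 256 and 255 CPM in ST2+ and 107, 136, 154, 154 and 134 CPM in ST2- libraries, again without overlap (log2 fold change 0.84, SE 0.15, adjusted p = 0.000896). Leaving out any mouse kept both calls, with adjusted p up to 0.043 for Gata3 and 0.0256 for Tnfrsf25.

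Swap70, a guanine nucleotide exchange factor acting on Rac and the actin skeleton, was at 430, 277, 257, 238 and 310 CPM in ST2+ and 160, 97.7, 179, 138 and 159 CPM in ST2- libraries (log2 fold change 1.04, SE 0.22, adjusted p = 0.00824). Cpm, carboxypeptidase M, a membrane enzyme that trims C-terminal lysine and arginine, was at 732, 736, 790, 585 and 858 CPM against 520, 561, 518, 391 and 427 CPM. For both genes the groups were separate. The change of Cpm was small at 1.53-fold, just over the limit (log2 fold change 0.61, SE 0.14, adjusted p = 0.0335), and its call was lost whichever mouse was left out, with adjusted p up to 0.249. That of Swap70 was lost without mouse 1 or mouse 4, with adjusted p up to 0.11.

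Pdlim1, a cytoskeletal adaptor that binds alpha-actinin, was at 40.1, 74.2, 106, 62.6 and 60.5 CPM in ST2+ and 19.2, 28.3, 31.2, 27.3 and 42.8 CPM in ST2- libraries. It was higher in all 5 mice, although the ST2+ library of mouse 1 lay below the ST2- library of mouse 5 (log2 fold change 1.20, SE 0.24, adjusted p = 0.00656, up to 0.191 without mouse 3 or mouse 4). Zfp213, a zinc finger protein, stood at 18.3, 7.28, 14.2, 10.01 and 3.95 CPM against 0.855, 1.35, 2.55, 1.398 and 3.52 CPM. These values did not overlap, yet they rest on few reads (log2 fold change 2.46, SE 0.57, adjusted p = 0.0335, up to 0.414 on leaving out a mouse).

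The other 4 genes called higher had few reads, were at 0 in many libraries or overlapped between the groups. Gfi1, a transcriptional repressor, was at 15.8 and 7.51 CPM in the ST2+ libraries of mice 1 and 4, at 0 in the other 3, and at 0.586 CPM in 1 ST2- library. Cacna2d4, a calcium channel subunit, was at 0.853, 0, 11.8, 8.34 and 8.47 CPM in ST2+ and at 0 in all ST2- libraries. Cpa3, mast cell carboxypeptidase A, was at 256 CPM in the ST2+ library of mouse 4 and at 0 in the other 9 libraries. Ttc27 was at 51.2, 20.5, 9.91, 35.0 and 9.60 CPM in ST2+ and 3.85, 16.2, 0, 4.19 and 12.3 CPM in ST2- libraries, which overlapped. With the mouse as a replicate block the adjusted p rose to 0.0534 for Cacna2d4 and Ttc27 and to 0.0975 for Cpa3, so these calls were lost. Without the ST2+ library of mouse 4, Cpa3 was at 0 in every library left, Cacna2d4 had an adjusted p of 0.0604 and Ttc27 of 0.104.

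**Figure D2:**
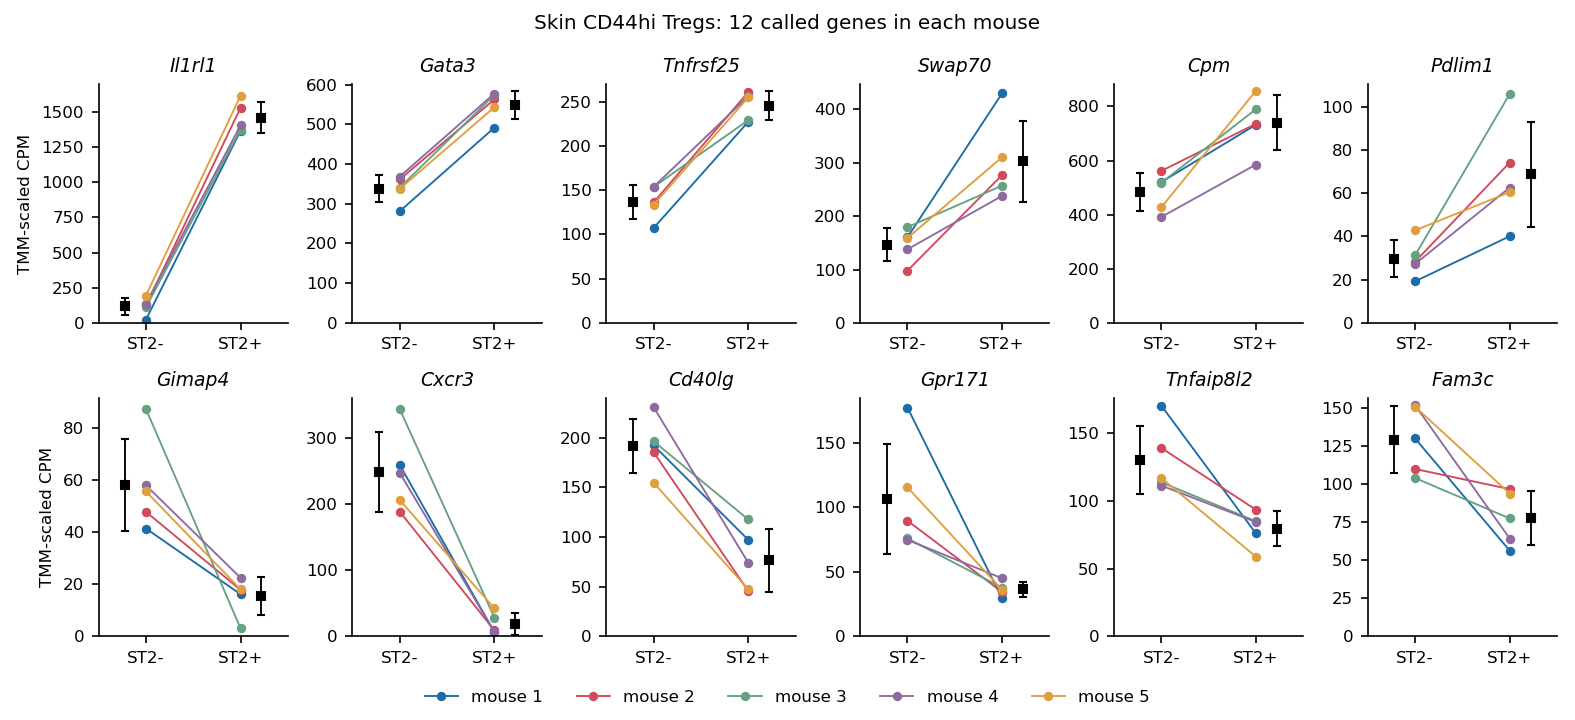
TMM-scaled CPM (y axis, from 0) of 12 called genes in ST2- and ST2+ CD44hi skin Tregs. Coloured lines join the 2 libraries of each of the 5 mice, and black squares with bars give the mean and SD. Il1rl1 rises from at most 195 to at least 1366 CPM, and Cxcr3 drops from at least 189 to at most 42.4 CPM.

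Cxcr3, the receptor for the interferon-induced chemokines CXCL9 and CXCL10, was the called gene with the second smallest p among those lower in ST2+ cells. It stood at 6.39, 9.27, 28.5, 6.68 and 42.4 CPM in ST2+ and at 259, 189, 344, 247 and 206 CPM in ST2- libraries. The groups were far apart, and the difference was 13.2-fold (log2 fold change -3.72, SE 0.47, adjusted p = 3.82e-07). Among 22 chemokine and trafficking receptors, of which 21 were tested, Cxcr3 was the only gene that edgeR called, beside 0.213% of all genes. Of the 21, 1 was higher and 1 lower at an unadjusted p under 0.05, beside 3.49% and 4.96% of all genes. Ccr3, the eotaxin receptor, had 183, 222, 149, 61.7 and 156 CPM in ST2+ and 71.4, 27.6, 43.4, 52.4 and 80.9 CPM in ST2- libraries without passing (adjusted p = 0.489). The median log2 fold change of the 21 was -0.016.

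Cd40lg, the ligand through which helper T cells activate B cells and dendritic cells, was at 97.2, 45.7, 118, 74.3 and 47.5 CPM in ST2+ and 192, 185, 196, 231 and 155 CPM in ST2- libraries. The groups were separate, with a 2.5-fold lower level in ST2+ cells (log2 fold change -1.32, SE 0.26, adjusted p = 0.00656). The call was lost without mouse 4 or mouse 5, with adjusted p up to 0.132. Tnfsf11, which encodes RANKL, another ligand of the TNF family, was at 0.426, 11.3, 14.2, 12.5 and 18.6 CPM against 37.2, 52.6, 47.2, 66.4 and 21.1 CPM. Its ranges did not overlap either (log2 fold change -1.99, SE 0.45, adjusted p = 0.03), but the call held only without mouse 5, with adjusted p up to 0.215 on leaving out another mouse.

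Gimap4, a GTPase of lymphocytes that regulates their survival, had the smallest p of all genes. Its level was 16.2, 17.9, 3.10, 22.5 and 18.1 CPM in ST2+ and 41.5, 47.9, 87.4, 58.02 and 55.7 CPM in ST2- libraries. No ranges overlapped (log2 fold change -1.91, SE 0.19, adjusted p = 5.57e-10), and the adjusted p was at most 8.44e-07 on leaving out any mouse. In limma with quality weights the same gene had an adjusted p of 0.14, and the call was lost there. It was also lost in skin libraries alone (adjusted p = 0.2) and in skin alone with the mouse as a replicate block (0.25). The gene lies among 7 other tested Gimap genes on chromosome 6, picked for their position after these values were seen, and none of the 7 was called. Gimap3, another of these GTPases, was at 150 ± 52.4 and 187 ± 41.3 CPM (SD, n = 5 each, log2 fold change -0.31), and Gimap6 at 82.4 ± 11.2 and 80.6 ± 18.6 CPM (log2 fold change 0.04). Gimap8 pointed the other way, at 39.8 ± 17 and 24.1 ± 12.2 CPM (log2 fold change 0.74, adjusted p = 0.275).

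Gpr171, a G protein-coupled receptor that dampens T cell activation, was at 29.4, 34.4, 37.8, 45.1 and 36.2 CPM in ST2+ and 177, 89.6, 75.9, 74.8 and 115 CPM in ST2- libraries. No ST2+ library reached the lowest ST2- library (log2 fold change -1.55, SE 0.31, adjusted p = 0.00656), but without mouse 1 the adjusted p was 0.207. It overlaps Med12l on the other strand, as Cacna2d4 overlaps Lrtm2, and whether counting used strand is not given in the sources used here. Tnfaip8l2, which encodes TIPE2, an inhibitor of T cell and innate receptor signalling, was at 75.9, 93.4, 84.9, 84.3 and 58.8 CPM against 170, 139, 114, 111 and 117 CPM, also without overlap (log2 fold change -0.72, SE 0.15, adjusted p = 0.00717, up to 0.11 without mouse 1 or mouse 5). Izumo1r, folate receptor 4 of Tregs and anergic T cells, was at 20.5, 27.1, 27.3, 13.4 and 23.2 CPM against 51.3, 28.3, 80.4, 47.5 and 59.8 CPM. Its groups were only just separate (log2 fold change -1.25, SE 0.24, adjusted p = 0.00446, up to 0.0853 without mouse 1, 4 or 5).

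Fam3c, a secreted protein, was at 56.3, 96.7, 77.4, 64.3 and 93.8 CPM in ST2+ and 130, 110, 104, 152 and 151 CPM in ST2- libraries (log2 fold change -0.74, SE 0.14, adjusted p = 0.00446, up to 0.154 without mouse 1 or mouse 4). Ms4a6b, a tetraspan membrane protein of activated T cells, was at 163, 78.1, 140, 130 and 121 CPM against 221, 129, 260, 296 and 208 CPM. Its ranges overlapped, with every mouse lower in ST2+ (log2 fold change -0.81, SE 0.16, adjusted p = 0.00594, up to 0.133 without mouse 4 or mouse 5). Thumpd2 was near the limit of detection in ST2+ cells, at 0.853, 1.32, 1.86, 1.67 and 0 CPM, and at 5.56, 16.2, 12.1, 6.99 and 8.21 CPM in ST2- cells (log2 fold change -3.09, SE 0.64, adjusted p = 0.00717, up to 0.0612 without mouse 1 or mouse 5).

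Among the remaining genes called lower, Ifit2, Gbp8 and Slfn1 are known to respond to interferons. Phf11b was at 26.4, 16.6, 26.0, 16.7 and 20.9 CPM in ST2+ and 32.5, 39.8, 42.7, 81.8 and 24.0 CPM in ST2- libraries, with the mouse 4 ST2- library highest (log2 fold change -1.03, SE 0.21, adjusted p = 0.00789, up to 0.396 without mouse 2 or mouse 4). Gbp8, a guanylate-binding protein, was 1.73-fold lower in ST2+ (84.8 ± 15.7 and 147 ± 32.6 CPM, SD, n = 5 each). It overlaps Gbp4 and Gbp9 on the same strand, so the assignment of its reads is uncertain. Slfn1 was at 9.16 ± 8.91 and 26.4 ± 14.8 CPM, Ifit2 at 4.53 ± 6.45 and 27.1 ± 19.9 CPM, and Ifit1bl1 at 0 in 4 of 5 ST2+ libraries against 0.855, 9.44, 3.83, 36.3 and 0 CPM in ST2-. Of these, Slfn1 and Ifit1bl1 belong to families of close paralogs. Card6, a caspase recruitment domain protein, was at 4.001 ± 2.37 and 20.02 ± 15.1 CPM, and the thromboxane receptor Tbxa2r at 0 in 4 of 5 ST2+ libraries, with 15.8, 2.70, 10.2, 2.097 and 0 CPM in ST2-. On leaving out a mouse the adjusted p of these 6 genes reached 0.205 to 0.624, and with the replicate block Ifit2 and Tbxa2r were at 0.0534 and were not called. Without the ST2+ library of mouse 4, Slfn1 (adjusted p = 0.0592), Gbp8 (0.0713), Ifit2 (0.122) and Tnfsf11 (0.055) were not called.

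The list of 14 interferon-stimulated genes, all tested, held no gene called by edgeR or limma and 1 called lower by DESeq2. With edgeR 6 had an unadjusted p under 0.05, all lower in ST2+, beside 4.96% of all genes in that direction. The fitted value was below 0 for 13 of 14, with a median log2 fold change of -1.01. Ifit3 was at 0, 2.65, 0, 0 and 2.26 CPM in ST2+ and 10.3, 7.41, 8.29, 55.2 and 6.45 CPM in ST2- libraries (adjusted p = 0.21). Iigp1, an immunity-related GTPase, was at 0, 5.96, 68.7, 4.17 and 28.2 CPM against 89.7, 40.4, 135, 72.7 and 76.8 CPM (adjusted p = 0.311). Igtp, the most abundant of the list by CPM, was at 404 ± 79 and 522 ± 64.8 CPM (adjusted p = 0.405). For Ifit3, as for Ifit1bl1, the ST2- library of mouse 4 was the highest.

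Among genes of helper T cell programs, Tbx21 and Ifng were lower in ST2+ by limma and not by edgeR or DESeq2. Of 20 factors and cytokines listed, 17 were tested. Cd40lg alone was called by edgeR and by DESeq2, and limma with quality weights called 3 lower and 1 higher. Of all 13173 genes tested, edgeR called 0.213% and limma 55 genes. Tbx21, the type 1 lineage factor T-bet, was at 27.3, 0, 21.7, 0 and 2.82 CPM in ST2+ and at 185, 49.9, 149, 37.0 and 114 CPM in ST2- libraries. The ranges did not overlap, yet spread within the groups was large (log2 fold change -3.31, SE 1.01, adjusted p = 0.205 with edgeR and 0.00504 with limma). Ifng, interferon gamma, was at 37.5, 0, 17.96, 0 and 3.39 CPM against 82.0, 18.2, 76.5, 79.0 and 170 CPM, lower in all 5 mice (adjusted p = 0.284 and 0.00131).

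On the type 2 side, Il5 was at 0, 27.8, 9.29, 17.5 and 4.52 CPM in ST2+ and at 0 in all 5 ST2- libraries (adjusted p = 0.158 with edgeR and 0.000731 with limma). Mouse 1 thus had no Il5 reads in either population. Stat6, which relays IL-4 signals, was at 478, 476, 376, 326 and 420 CPM against 230, 377, 224, 271 and 283 CPM (log2 fold change 0.59, adjusted p = 0.405). Over the 17 tested the median log2 fold change was 0.055, with 3 genes higher and 4 lower at an unadjusted p under 0.05, beside 3.49% and 4.96% of all genes.

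Other genes that limma called and edgeR did not were named by the smallest adjusted p. Rel, the NF-kB subunit c-Rel, was at 1289, 1420, 1081, 1150 and 1298 CPM in ST2+ and 481, 576, 582, 937 and 980 CPM in ST2- libraries, without overlap (edgeR adjusted p = 0.0555, limma 3.94e-05). With the mouse as a replicate block edgeR called it too (adjusted p = 0.0251). Krt79 was at 44.1 ± 36.5 and 4.23 ± 4.63 CPM, and Apoc1 at 16.3 ± 15.4 and 4.07 ± 6.39 CPM. Krt79 marks keratinocytes of the hair follicle. Lower in ST2+ were Msx1, with 0 in every ST2+ library and 6.84, 13.5, 5.74, 7.69 and 2.93 CPM in ST2-, Htra1 (1.32 ± 2.15 and 33.3 ± 22.9 CPM) and Grb10 (0.265 ± 0.592 and 3.33 ± 2.24 CPM). In all, 47 genes were called by limma alone.

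**Figure D3:**
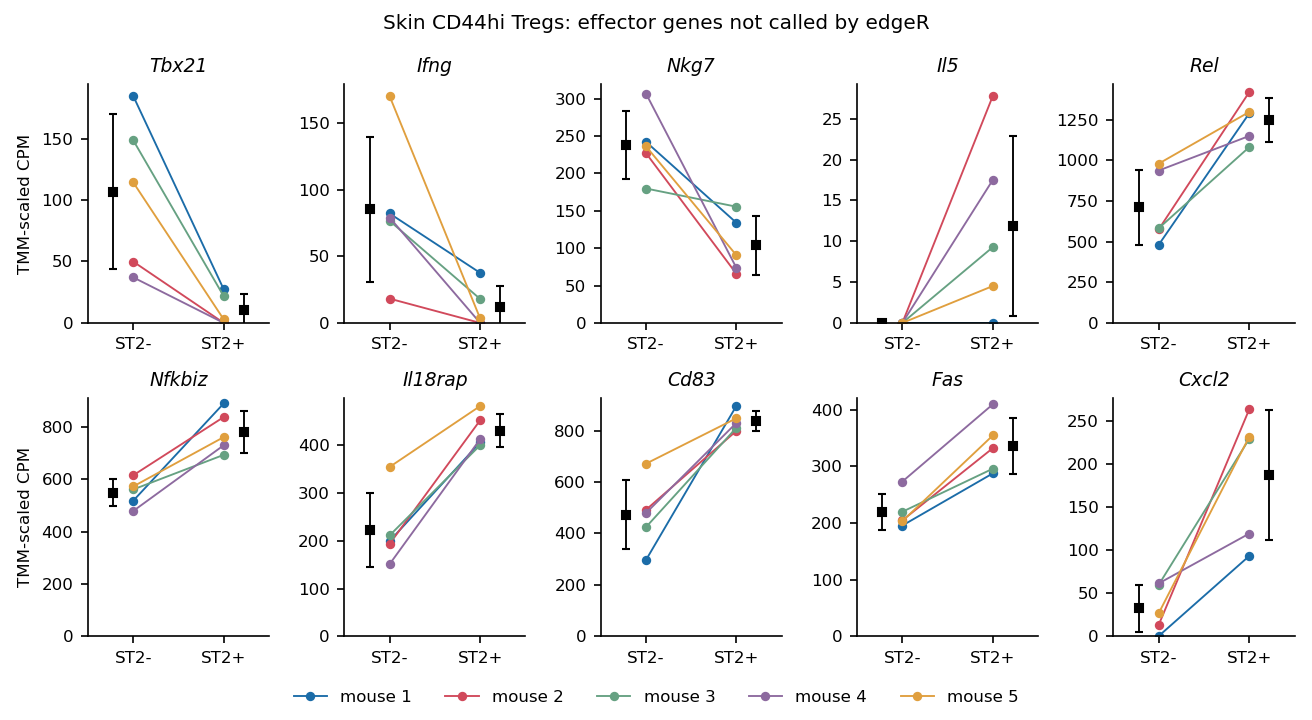
TMM-scaled CPM (y axis, from 0) of 10 effector genes that edgeR did not call, in ST2- and ST2+ skin Tregs, with lines joining the libraries of each mouse and black squares and bars for mean and SD. Tbx21, Ifng and Nkg7 lie lower in ST2+ in every mouse, and Rel, Nfkbiz, Il18rap, Cd83, Fas and Cxcl2 higher, while Il5 is at 0 in every ST2- library.

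A list of 16 genes joined the IL-33 receptor and its signalling chain with the related receptors Il1r1, Il1r2, Il18r1 and Il18rap and the inhibitor Sigirr. All were tested, edgeR called Il1rl1 alone and limma Il1rl1 and Il18rap, 10 lay above 0 and the median log2 fold change was 0.14. EdgeR called 0.213% of all genes. With edgeR 2 of the 16 were higher and 0 lower at an unadjusted p under 0.05, beside 3.49% and 4.96% of all genes. Il18rap, a chain of the IL-18 receptor that lies in the same cluster on chromosome 1, was at 405, 452, 399, 412 and 481 CPM in ST2+ and 199, 193, 211, 151 and 354 CPM in ST2- libraries. The ranges were separate, and the gene passed with limma (adjusted p = 0.0226) but not with edgeR (log2 fold change 0.95, SE 0.40, adjusted p = 0.442). Il18r1, which sits between Il1rl1 and Il18rap and encodes the partner chain, was at 302 ± 41.7 and 381 ± 149 CPM (log2 fold change -0.34, adjusted p = 0.916).

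Most NF-kB subunits and feedback inhibitors had fitted values above 0, with Rel called by some of the fits. All 16 listed genes were tested, and edgeR called 0, DESeq2 1 and limma 1. The fitted value was above 0 for 15 of 16, the median log2 fold change was 0.28, and 5 were higher at an unadjusted p under 0.05, beside 3.49% of all genes in that direction. Besides Rel, Nfkbiz, an atypical nuclear inhibitor, was at 891, 839, 694, 731 and 762 CPM in ST2+ and 519, 616, 562, 480 and 573 CPM in ST2- libraries. Its ranges did not overlap (log2 fold change 0.51, SE 0.18, adjusted p = 0.322). Nfkb1 was at 709 ± 82.5 and 522 ± 99.3 CPM (adjusted p = 0.428).

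Of 17 transcription factors known from tissue Tregs, edgeR called Gata3, beside 0.213% of all genes, and the median log2 fold change was 0.25. Of the 17, 3 were higher and 0 lower at an unadjusted p under 0.05, beside 3.49% and 4.96% of all genes. Batf, an AP-1 factor required for tissue Tregs, was at 295, 432, 325, 385 and 344 CPM in ST2+ and 127, 296, 251.9, 299 and 288 CPM in ST2- libraries, higher in all 5 mice (log2 fold change 0.50, SE 0.16, adjusted p = 0.275). Ikzf2, which encodes Helios, was at 1838 ± 275 and 1477 ± 366 CPM (adjusted p = 0.569). Of 14 genes of quiescence and lymph node homing, edgeR, limma and DESeq2 called 0, with 1 higher and 2 lower at an unadjusted p under 0.05, beside 3.49% and 4.96% of all genes, and a median of 0.064. Tcf7, the stemness factor TCF-1, was at 23.3 ± 18.8 and 44.6 ± 25.4 CPM, and Il7r, the IL-7 receptor, at 984 ± 94.3 and 721 ± 212 CPM (adjusted p = 0.428 and 0.397).

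Of 17 Treg identity genes tested, edgeR called Izumo1r lower, beside 0.129% of all genes called in that direction. At an unadjusted p under 0.05, 4 were higher, beside 3.49% of all genes, and 2, Izumo1r and Cd3e, lower, beside 4.96%, and the median log2 fold change was 0.041. Il2ra, the high-affinity IL-2 receptor chain, was at 978 ± 157 and 727 ± 191 CPM and was higher in all 5 mice (log2 fold change 0.43, SE 0.16, adjusted p = 0.366). Ikzf4, which encodes Eos, was at 436 ± 107 and 258 ± 29.4 CPM (adjusted p = 0.322). Of 18 suppressive and repair effectors, 17 were tested, with a median log2 fold change of 0.16, and edgeR and DESeq2 called 0 and limma 1, Havcr2, lower. At an unadjusted p under 0.05, 1 of the 17 was lower with edgeR, beside 4.96% of all genes. It was Entpd1, the ectonucleotidase CD39, at 46.8 ± 33.3 and 110 ± 50.1 CPM (adjusted p = 0.275). Areg, the repair factor amphiregulin, was at 324 ± 41.5 and 271 ± 70.4 CPM (log2 fold change 0.26, adjusted p = 0.945).

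Among 18 receptors of effector and terminal differentiation, edgeR called Tnfrsf25, beside 0.213% of all genes. In this list 16 lay above 0 and the median log2 fold change was 0.38. Of the 18, 3 were higher and 0 lower at an unadjusted p under 0.05, beside 3.49% and 4.96% of all genes. Cd83, an activation marker, was at 897, 799, 811, 830 and 848 CPM in ST2+ and 297, 492, 425, 480 and 671 CPM in ST2- libraries, and Fas, the death receptor, at 288, 332, 296, 410 and 355 CPM against 196, 205, 220, 273 and 203 CPM. Both pairs of groups were separate, and both genes passed with limma (adjusted p = 0.0118 and 0.0173) but not with edgeR (0.405 and 0.424). The 20 immediate early and dissociation genes gave 0 calls with edgeR, limma and DESeq2, 0 at an unadjusted p under 0.05 and a median of 0.022. The 15 cell cycle genes gave 0 calls with the same 3 tools and 0 at that p, although 13 lay above 0 with a median of 0.57. The licensing factor Mcm3 was at 138 ± 47.6 and 78.9 ± 38.4 CPM. The topoisomerase Top2a was at 135 ± 54.2 and 68.1 ± 27.2 CPM.

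The study named 8 genes as a core of ST2+ Tregs and 10 cytokine and receptor genes for skin, both chosen on libraries of this series, so their direction here is not independent evidence. The core was defined on the tissues other than skin, so its genes were not required to differ in skin. The study does report Il1rl1, Gata3 and Rln3 as DEGs in every tissue, skin included. For protein, its flow cytometry found KLRG1 on more ST2+ than ST2- Tregs in every tissue. The frequency of GATA3+ cells was higher among ST2+ Tregs in every tissue except skin. Of the 8, edgeR and limma with quality weights called Il1rl1 and Gata3 only, and DESeq2 also Rln3 (adjusted p = 0.029). Rln3, relaxin 3, was at 124, 90.0, 90.4, 70.9 and 80.8 CPM in ST2+ and 22.6, 14.8, 42.7, 69.2 and 42.2 CPM in ST2- libraries, separate by a narrow margin (log2 fold change 1.26, SE 0.35, adjusted p = 0.121 with edgeR). Klrg1 (592 ± 118 and 308 ± 159 CPM, adjusted p = 0.6), Lyn (307 ± 18.3 and 214 ± 29.1 CPM, 0.799), Rab4a (178 ± 25.3 and 132 ± 25.6 CPM, 0.969) and Ptpn13 (294 ± 41 and 261 ± 61 CPM, 0.985) did not pass. Klrg1, Lyn and Rab4a were nevertheless higher in ST2+ in every mouse, and for Lyn the groups did not overlap. Tbc1d4, at 1.60 ± 2.89 and 6.85 ± 6.21 CPM, pointed down (adjusted p = 0.483). Over the 8 genes the median log2 fold change was 0.61. Of the 10 skin genes, Il1rl1 and Tnfrsf25 were called higher and Cxcr3 and Cd40lg lower. Limma with quality weights called 7 higher and 3 lower. Beside both lists, edgeR called 0.213% of all 13173 genes tested, and limma called 55 genes. Cxcl2, a neutrophil chemokine, was at 93.4, 264, 229, 119 and 232 CPM in ST2+ and 0.427, 13.5, 59.9, 61.5 and 27.0 CPM in ST2- libraries (adjusted p = 0.158 with edgeR), and Ccl8 at 10.5 ± 11.9 and 1.37 ± 2.41 CPM (0.707).

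The skin contrast was then set against the same contrast in blood, spleen, lungs, VAT and colon, fitted in 1 model (3 to 5 libraries a group). Of the 28 skin DEGs, 11 were also DEGs in the same direction in at least 1 other tissue and 17 in none. In VAT 11 were shared, which is 39.3% of the skin genes and 2.68% of the 411 genes called in VAT out of 13173 tested. In blood 5 were shared (17.9% of the skin genes and 0.94% of 532 called out of the same 13173). Spleen, lungs and colon shared 3 each (10.7% of the skin genes). These are 7.14% of 42, 2.91% of 103 and 33.3% of 9 genes called there. Il1rl1 and Gata3 were called in all 6 tissues.

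A test of the skin effect against the mean effect of the other 5 tissues called 27 genes (0.205% of those tested), 11 with a higher and 16 with a lower value in skin, and 13 of the 27 were skin DEGs. Without mouse 1, 2, 3 or 4 the count was 17, 9, 9 or 7. Il1rl1 had a smaller ST2 contrast in skin, with a difference of -2.94 (SE 0.47, adjusted p = 0.000217) from the mean of the others. It differed from VAT (-2.77, SE 0.58, adjusted p = 0.00666), while the difference from colon did not pass (-0.99, SE 0.60, adjusted p = 0.913). Its ST2- level was 118 ± 61.6 CPM in skin, 24.8 ± 22.3 CPM in colon, 14.006 ± 5.85 CPM in VAT and 1.08 to 5.87 CPM on average in spleen, lungs and blood, while skin also had the highest ST2+ level. Every ST2- skin library, down to 23.9 CPM, lay above every ST2- library of blood, spleen, lungs and VAT, but not of colon, where the highest had 60.6 CPM.

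Gimap4 and Cxcr3 also differed from the mean of the other tissues. The ST2 effect on Gimap4 was -1.91 in skin and -0.20 on average elsewhere, a difference of -1.70 (SE 0.21, adjusted p = 2.36e-07), and it also differed from VAT (-1.61, adjusted p = 0.000105) and from colon (-1.61, adjusted p = 0.000766). Its level was lower in skin as a whole: no skin library passed 87.4 CPM, and no ST2+ or ST2- library of the other 5 tissues was under 582 CPM. The fit shares its dispersion for a gene over all groups, so the other tissues help to set the SE in skin. The skin effect of Gimap4 was not called by edgeR in skin libraries alone (adjusted p = 0.2) or by limma with quality weights (0.14). For Cxcr3 the skin effect of -3.72 stood beside -0.65 elsewhere, a difference of -3.07 (SE 0.50, adjusted p = 0.000289). VAT had a smaller drop of -1.76 (SE 0.41), and the difference between skin and VAT did not pass (-1.96, SE 0.60, adjusted p = 0.11), nor did that between skin and colon (-2.82, SE 0.64, adjusted p = 0.0938). ST2- cells of skin, at 249 ± 60.3 CPM, held about as much Cxcr3 as those of blood (261 ± 117 CPM) or colon (253 ± 51.8 CPM), whereas ST2+ cells of skin had the lowest level of the 6 tissues.

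Cd40lg differed as well, with a skin effect of -1.32 and a mean of 0.23 elsewhere (difference -1.55, SE 0.29, adjusted p = 0.00514), and so did Gpr171 (-1.59, SE 0.34, adjusted p = 0.0208), Tnfaip8l2 (-0.72, SE 0.16, adjusted p = 0.0238) and Pdlim1 (1.2195, SE 0.26, adjusted p = 0.022). Against VAT alone Cd40lg (adjusted p = 0.00403), Tnfaip8l2 (0.021) and Pdlim1 (0.03) passed, and Gpr171 (0.0567) did not. Against colon alone none of these 4 passed, with adjusted p of at least 0.367, and Pdlim1 in colon had a log2 fold change of 0.92 (SE 0.26, adjusted p = 0.228). For Gata3 (-0.46, SE 0.14, adjusted p = 0.197) and Tnfrsf25 (0.33, SE 0.16, adjusted p = 0.59) a difference between skin and the other tissues did not pass.

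Other genes passed this contrast without being called in skin. Ltb4r1, the leukotriene B4 receptor, was at 125 ± 30.8 and 95.6 ± 24.5 CPM in skin ST2+ and ST2- cells, a log2 fold change of 0.38 against a mean of 2.90 in the other tissues (difference -2.52, SE 0.52, adjusted p = 0.0158). It was called in blood, spleen, lungs and VAT, but colon, at 0.18, was close to skin (difference 0.20, SE 0.68), and the difference between skin and VAT did not pass (adjusted p = 0.174). Slamf6, a receptor of less differentiated T cells, was at 186 ± 39.6 and 152 ± 21.9 CPM in skin (log2 fold change 0.29) and had a mean effect of -0.70 elsewhere (difference 0.99, SE 0.19, adjusted p = 0.00649), with VAT at -1.94. Aff3 (difference 3.45, adjusted p = 0.0125), Gabrr2 (7.16, adjusted p = 0.0125) and Mgst2 (1.17, SE 0.25, adjusted p = 0.0208) also had higher effects in skin than the mean of the other tissues. For Slamf6 and these 3 genes the difference from colon alone did not pass (adjusted p of at least 0.426). In skin Aff3 averaged 5.79 and 1.31 CPM and Gabrr2 5.66 and 0.135 CPM, so few reads carry these values.

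**Figure D4:**
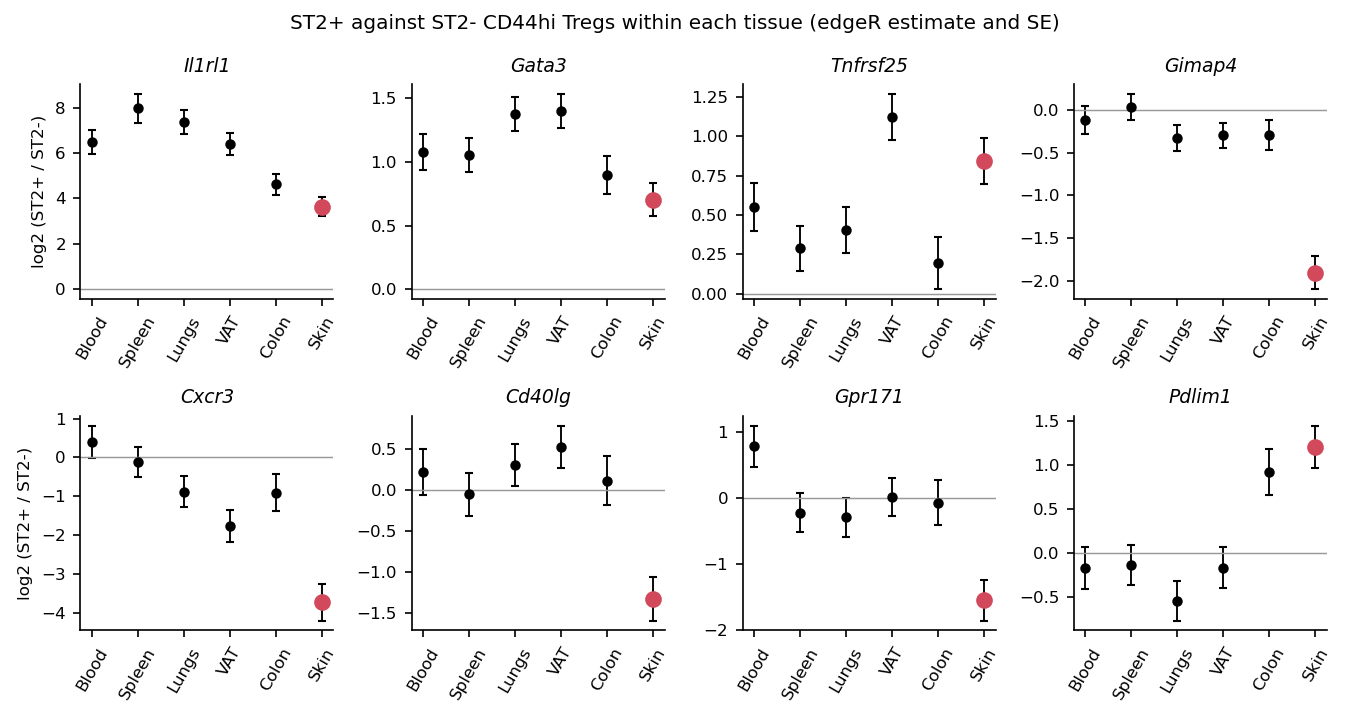
Log2 fold change of ST2+ over ST2- CD44hi Tregs with its SE (y axis) in each of 6 tissues (x axis) for 8 genes, with skin in red. Skin has the lowest value for Gimap4, Cxcr3, Cd40lg, Gpr171, Il1rl1 and Gata3 and the highest for Pdlim1. Gata3 and Il1rl1 are above 0 in every tissue.

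Markers of other skin cells were read in the same libraries. The mast cell and basophil list summed to 1063 CPM in the ST2+ library of mouse 4 and to 61.0 to 127 CPM in the other ST2+ and 37.7 to 89.6 CPM in the ST2- libraries. In that library 8 of 9 listed genes had reads, with Hdc at 325, Cpa3 at 256, Mcpt4 at 212, Cma1 at 108 and Tpsb2 at 40.1 CPM. The last 4 were at 0 in the other 9 libraries, and Fcer1a was at 0 in all 10. Kit was the most abundant of the list by CPM over all libraries. Of the 3 genes tested, 2 were higher at an unadjusted p under 0.05 with edgeR, beside 3.49% of all genes. EdgeR and DESeq2 called Cpa3 and limma called 0, and Hdc (80.6 ± 137 and 12.2 ± 14.1 CPM, adjusted p = 0.497) did not pass. The share of all genes that edgeR called was 0.213%. The part of these reads in the other results was not tested.

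Fibroblast markers summed to 1065 and 601 CPM in the ST2- libraries of mice 4 and 2, to 82.1 to 307 CPM in the other ST2- and to 42.2 to 152 CPM in the ST2+ libraries. Sparc was the most abundant by CPM, and Dcn reached 513 CPM in the ST2- library of mouse 4. Of the 10 tested, edgeR, limma and DESeq2 called 0, 6 were lower in ST2+ at an unadjusted p under 0.05, beside 4.96% of all genes, and the median log2 fold change was -2.63. Endothelial markers summed to 723 CPM in the ST2- library of mouse 2 and to at most 186 CPM elsewhere. Cldn5 was at 154 CPM there and at 0 in the other 9. Of the endothelial genes, edgeR and limma called 0 of 8 and DESeq2 1 lower. With edgeR 1 was lower at an unadjusted p under 0.05, beside 4.96% of all genes. The ST2- library of mouse 4 was thus high in fibroblast and in several interferon genes. The share of either in the lower values of ST2+ cells was not tested.

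Keratinocyte markers were highest in mouse 3, at 2640 CPM in ST2+ and 1682 CPM in ST2-, and lay between 123 and 734 CPM in the other mice. Of 13 tested edgeR called 0, limma 1, Krt79, and DESeq2 1, with 3 higher at an unadjusted p under 0.05, beside 3.49% of all genes. The fitted value was above 0 for 10 of the 13, with a median log2 fold change of 0.80. Krt10, at 110 ± 187 and 12 ± 10.1 CPM, was set by 438 CPM in mouse 3 (adjusted p = 0.0916). Macrophage and dendritic cell genes summed to 488 to 735 CPM in ST2+ and 392 to 558 CPM in ST2- libraries, led by Cd74 (460 ± 46.7 and 347 ± 25.9 CPM). The macrophage receptor Csf1r was at 0 in 9 of 10 libraries. Lyz2 had reads in all 5 ST2+ libraries (28.1, 3.97, 11.1, 7.51 and 7.91 CPM) and in 2 ST2- libraries (0.674 and 112 CPM), and Fcer1g reached 60.1 CPM. EdgeR, limma and DESeq2 called 0 of 14, and 11 had fitted values above 0. Their median log2 fold change was 1.28, or 0.97 with genes at 0 in a whole group set to their bound. At an unadjusted p under 0.05, 3 were higher, beside 3.49% of all genes, and 1 lower, beside 4.96%. The part of these reads in the other results was not tested. Muscle, fat and sebaceous, and red cell markers gave 0 calls with the same 3 tools and sums of at most 348 CPM. At an unadjusted p under 0.05 they had 1 higher of 5, 1 lower of 7 and 0 of 4 tested. Of all genes, 3.49% were higher and 4.96% lower at that p.

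**Figure D5:**
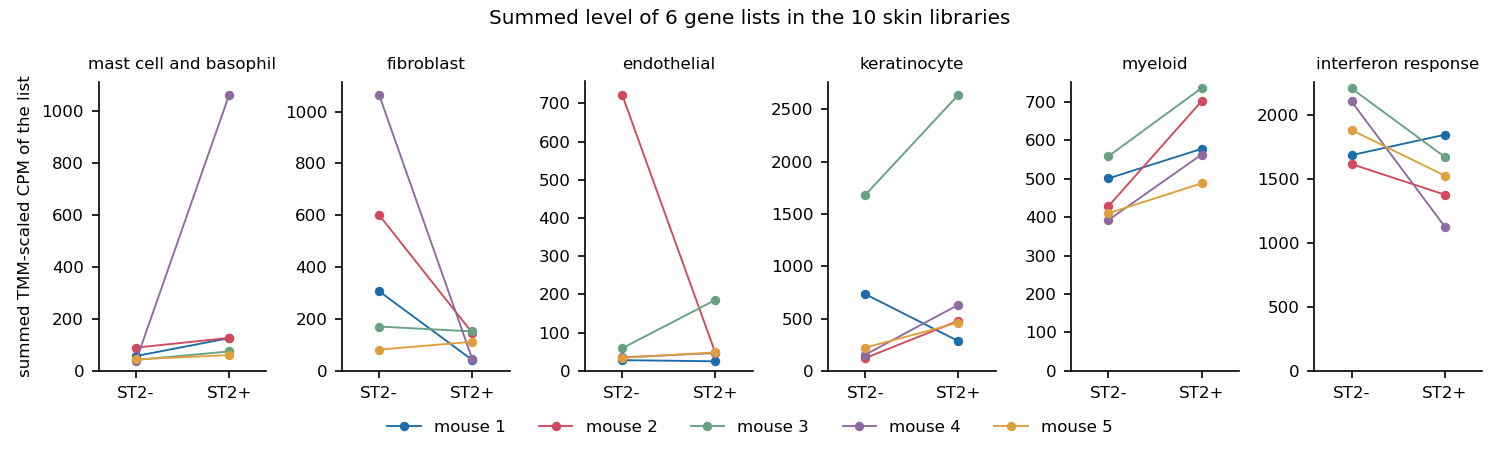
Summed TMM-scaled CPM (y axis, from 0, a scale for each panel) of 5 lists of cell markers and of the interferon list in each skin library, with lines joining the ST2- and ST2+ libraries of each mouse. Single libraries stand out: mouse 4 ST2+ for mast cell genes at 1063 CPM, mouse 4 ST2- for fibroblast genes at 1065 CPM and mouse 2 ST2- for endothelial genes at 723 CPM.

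Markers of other lymphocytes were read as well. The CD8 and NK list summed to 70.8 to 380 CPM in ST2+ and 246 to 505 CPM in ST2- libraries, led by Nkg7. Of this list, edgeR called 0 of 8, limma 1 lower and DESeq2 2 higher. With edgeR 1 was higher and 1 lower at an unadjusted p under 0.05, beside 3.49% and 4.96% of all genes. Nkg7, a granule protein that type 1 T cells also express, was at 134, 65.5, 155, 73.4 and 90.4 CPM in ST2+ and 242, 227, 180, 307 and 236 CPM in ST2- libraries, without overlap (log2 fold change -1.19, SE 0.38, adjusted p = 0.246 with edgeR and 0.0419 with limma). The NK-defining Ncr1 was at 32.8 CPM in the ST2+ libraries of mice 1 and 3 and at 0 in the other 8. Gamma delta T cell genes summed to 265 CPM in the ST2- library of mouse 1, where Trdc was at 106 CPM, and to at most 35.4 CPM in the other 9 libraries. Of the 2 tested, 0 were called by edgeR, limma or DESeq2, and 0 had an unadjusted p under 0.05. B cell genes summed to 321 to 501 CPM in ST2+ and 175 to 343 CPM in ST2- libraries, led by Ighm, while the B cell-defining Pax5 was at 0 in all 10. Of 4 tested, edgeR and limma called 0 and DESeq2 1 higher. With edgeR 1 was higher at an unadjusted p under 0.05, beside 3.49% of all genes. Cd79b was at 20.04, 27.1, 8.67, 20.9 and 14.7 CPM in ST2+ and 3.85, 4.72, 0, 2.80 and 4.69 CPM in ST2- libraries.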

How the data were processed

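The authors sorted Tregs and sequenced full-length cDNA libraries. Per the labels and the submitters' processing notes, reads were processed with CASAVA 1.8.2, STAR and HTSeq 0.4.1 on GRCm38. The deposited values are raw counts per gene, and the counting mode and use of strand were not stated in the sources read. The members and gene lists were chosen with earlier results of these data known.

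Of 70 libraries, 67 with at least 1000000 counts were kept, with a median of 2039002. A level of 1 CPM is about 2 reads in a median library, so low genes are imprecise. TMM factors were computed on all genes, and the filter, 1 CPM or more in 10% or more of kept libraries, left 13173 protein-coding genes, which were tested in edgeR 4.0.16 (R 4.3.3) with the quasi-likelihood test over 14 groups, with no term for the mouse. A gene was a DEG when it differed 1.5-fold or more and its p, adjusted by Benjamini-Hochberg, did not exceed 0.05. The contrast between tissues took the skin effect minus the mean of the other 5. Means are given with the SD over 5 mice. Alternatives were DESeq2 1.42.0, limma 3.58.1 with voom, other filters and factors, a replicate block, skin alone and each mouse left out, and 2 were chosen after seeing the data: the ST2+ library of mouse 4 left out, and TMM factors computed after the filter. Scripts were tested on simulated data. Library measures were compared by exact permutation tests.

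Libraries of the same mouse are paired because they come from the same animal. Deviations from the group means correlated at 0.0863 on average within a mouse and at -0.0217 between mice, over 8922 genes. Centring each group on its own mean largely fixes the second value from the first, so it is not a separate observation. Named genes are Il1rl1 and Foxp3, all DEGs, the members of smallest p in each of 25 lists, the study's core genes, and up to 5 genes per direction of smallest adjusted p in the tissue contrast and among those limma alone called. Promoter windows are from RefSeq. Some genes that this rule names are not reported here.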

Additional observations from a re-analysis of the deposited data

Results flagged for a closer look

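Single libraries lay far from the other 4 of their group for 5 genes. For Ifit1bl1 and Slfn1 in ST2- libraries the criterion is one that chance meets in about 1 in 20 groups. Where the other 4 libraries are at 0 any value meets it, even a single read, so that rate does not apply to the rest. In ST2+ libraries these were Cpa3 at 256 CPM and Tbxa2r at 2.50 CPM in mouse 4, and Ifit1bl1 at 0.426 CPM in mouse 1, with the other 4 libraries at 0 for each. In ST2- libraries they were Ifit1bl1 at 36.3 CPM in mouse 4 (0 to 9.44 CPM in the others), Slfn1 at 52.1 CPM in mouse 1 (15.8 to 23.8 CPM) and Gfi1 at 0.586 CPM in mouse 5 (0 in the others).

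The ST2 effect in skin differed from the mean of the other 5 tissues, by the contrast in edgeR, for 27 genes, of which the 18 named in the report are given on the log2 scale. It was lower in skin for Cxcr3 (-3.07), Il1rl1 (-2.94), Thumpd2 (-2.89), Ltb4r1 (-2.52), Gimap4 (-1.70), Gpr171 (-1.59), Cd40lg (-1.55), Phf11b (-1.03) and Tnfaip8l2 (-0.72). It was higher for Slamf6 (0.99), Mgst2 (1.17), Pdlim1 (1.2195), Ttc27 (2.05) and Aff3 (3.45). For Gfi1 (4.85), Cacna2d4 (6.79), Gabrr2 (7.16) and Cpa3 (11.27) an ST2- group of skin was at or near 0, so the fitted value depends on the prior count. Thumpd2, Phf11b, Ttc27 and Gfi1 did not pass against VAT alone or colon alone (adjusted p of at least 0.051, edgeR). Cacna2d4 and Cpa3 passed against VAT alone (0.0254 and 0.0432) but not against colon alone (0.47 and 0.334).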

How the results depend on the processing

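Il1rl1 and Cxcr3 were called under all 21 alternatives for skin, and no log2 fold change that was followed reversed. The count of 28 skin DEGs was 102 with DESeq2, 55 with limma, voom and quality weights, 46 without the weights, 14 with all 70 libraries, 3 with glmTreat and 5 with skin libraries alone, and 12 to 25 on leaving out a mouse. The cause of these shifts was not tested. With the mouse as a replicate block it was 26, with 23 of the 28 kept, and 25 with the block in skin alone, with 8 kept. Over all groups the blocked fit lost Cacna2d4, Cpa3, Tbxa2r, Ttc27 and Ifit2 and added 3 genes, of which Rel is named here, and it changed the skin call of no other named gene. With the block in skin alone the 8 kept were Il1rl1, Cxcr3, Tnfrsf25, Gata3, Ms4a6b, Cd40lg, Swap70 and Cpm, and the other 20, Gimap4 among them, were lost. For the tissue contrast, 27 became 129 with DESeq2, 100 and 108 with limma with and without weights, 12 with all 70 libraries and 7 to 19 on leaving out a mouse, and 38 with the replicate block. Quality weights in limma were lowest for mouse 1. Depth limits genes of few CPM, where 220 cells and about 2 reads per CPM leave zeros that may be missed transcripts.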
